A study of Drosophila melanogaster with 3 samples.

Results

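The regions described here were 759 pooled ChIP-seq peaks of the forkhead protein Jumeau that lay at the start sites of non-coding RNA (ncRNA) genes, out of 29812 pooled peaks in all. A pooled peak was taken when the annotated transcription start site nearest to its summit belonged to an ncRNA gene and lay within 500 bp of it. The 759 peaks belonged to 657 annotated ncRNA entries, of which 601 were genes other than microRNAs and 56 were microRNA hairpins or mature arms. They were set beside 7966 pooled peaks whose nearest start site, within the same distance, belonged to a protein-coding gene. Of the 759 peaks, 118 were also in the optimal list, the set of peaks that the authors kept after the irreproducible discovery rate procedure. Chromatin came from whole Drosophila melanogaster embryos of mixed sex, 0 to 24 hours old, of the strain jumu-MiMIC-GFP. These flies carry an eGFP exon in an intron of jumu, so the precipitated protein was a jumu-eGFP fusion, pulled down with an antibody against GFP. There was 1 group of 3 biological replicates and no control sample was analysed here. All cells of the embryo were mixed, so a peak cannot be assigned to a cell type or to an hour of development.

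Jumeau is a winged-helix protein of the forkhead family, whose members bind DNA through a domain that reads a short A-rich core. It is known in the fly embryo for roles in heart and neural progenitors and for its influence on gene silencing near heterochromatin. The ncRNA genes of the fly include long non-coding RNAs (lncRNA), antisense RNAs (asRNA) transcribed across a coding gene on the opposite strand, microRNA hairpins (miRNA) and small RNAs that guide or catalyse the processing of other RNAs. Many lncRNAs start beside a protein-coding gene and point away from it, from a promoter that serves both directions. A microRNA is cut from a longer primary transcript, so its annotated start is the 5′ end of the hairpin or of the mature RNA and need not be a promoter.

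The sequences at 6 of the strongest optimal summits are shown so that the DNA under these peaks can be read. Each run is 61 bases centred on the summit, in dm6, on the strand of the ncRNA gene, 5′ to 3′, clear of annotated UTR and coding sequence. Capitals mark the forkhead core AAACA on either strand, a word chosen after these sequences had been read. The first 4 runs have no protein-coding start site within 500 bp, and the last 2 do.
lncRNA:CR44619, downstream peak, chrX:12752337-12752397, + strand: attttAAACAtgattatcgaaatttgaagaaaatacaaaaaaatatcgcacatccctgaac
lncRNA:CR44619, upstream peak, chrX:12751409-12751469, + strand: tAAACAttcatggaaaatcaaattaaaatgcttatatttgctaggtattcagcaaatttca
lncRNA:CR31840, chr2L:14024049-14024109, - strand: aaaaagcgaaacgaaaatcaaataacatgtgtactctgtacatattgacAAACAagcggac
lncRNA:CR31044, chr3R:29214425-29214485, + strand: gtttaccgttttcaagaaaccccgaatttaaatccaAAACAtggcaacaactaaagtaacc
lncRNA:CR44149, chr2L:9568697-9568757, - strand: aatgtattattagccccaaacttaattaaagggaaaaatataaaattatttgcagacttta
lncRNA:enrr, chrX:523453-523513, - strand: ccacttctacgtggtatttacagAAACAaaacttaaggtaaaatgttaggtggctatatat
All 6 runs were rich in A and T. Their GC content was between 23.0% at lncRNA:CR44149 and 36.1% at lncRNA:CR31044. Runs were read at 10 summits in all. They were the 5 strongest of each kind that met these conditions outside the chromosome arm of asRNA:CR45928, which was left out. Strong peaks on that arm were thus not read for the core. Among them were the shared peaks of asRNA:CR45928, asRNA:CR43257 and lncRNA:CR30055 and the stand-alone peak of lncRNA:CR45997. The core stood in 5 of the 10, all of them shown here, and was not found at lncRNA:CR44149 or at the 4 that are not shown: lncRNA:CR46102, asRNA:CR43470, lncRNA:CR45212 and lncRNA:CR45618.

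Peaks at ncRNA start sites were weaker, as a set, than peaks at protein-coding start sites and only a little stronger than pooled peaks in general. The gap to coding start sites was seen at ncRNA start sites that stood alone. Those beside a coding start did not show it as a set. Their share in the optimal list differed by orientation, which is tied to the side of the coding start, as described below. The share was 39.0% of 59 divergent peaks and 30.8% of 13 with the very same start. At 28 peaks with overlapping 5′ ends it was 10.7%, and at 17 on the same strand at different starts 5.9%. Of the 759 ncRNA promoter peaks, 118 were optimal, which is 15.5% (95% Wilson interval 13.1 to 18.3%). The share was 26.1% of protein-coding promoter peaks, 24.9% of promoter peaks of any gene and 12.9% of all pooled peaks. The share at ncRNA start sites was thus much nearer to that of all pooled peaks than to that of coding promoters. The optimal list was the same as all pooled peaks with a signal of 112.0 or more, so optimal here means strong in the pooled list. Signal is the value the authors' peak caller gave each peak, in its own units. The median signal was 52.3 at ncRNA start sites (quartiles 41.1 and 80.7), against 65.0 at protein-coding start sites (46.0 and 116.0) and 49.96 over all pooled peaks. Among optimal peaks alone the medians were 182.1 at ncRNA start sites and 187.6 at protein-coding ones.

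Some of the ncRNA start sites lay beside a coding start site, and these peaks are called shared when a protein-coding start site was within 500 bp of the summit. There were 117 shared peaks and 642 stand-alone ones. Stand-alone refers to start sites only and does not mean clear of coding genes. Inside a protein-coding gene lay 284 of the 642 stand-alone summits, 44.2%, against 55.6% of the shared ones. The share was 64.9% of protein-coding promoter peaks and 73.3% of all pooled peaks. Shared ncRNA peaks were optimal in 31 of 117 cases, 26.5% (19.3 to 35.1%), close to the share at protein-coding start sites. Stand-alone ncRNA peaks were optimal in 87 of 642 cases, 13.6% (11.1 to 16.4%), close to the share over all pooled peaks. The median signal was 72.9 at shared and 50.8 at stand-alone ncRNA start sites. The difference in optimal share, shared minus stand-alone, was 12.9 percentage points. It was 5.72 points with a 1000 bp window, 5.81 points when only peaks above a signal of 180.6 counted as optimal, and 8.17 points among the peaks found in replicates 1 and 3, without replicate 2. Among stand-alone peaks the optimal share was similar at all distances. It was 13.0% of 123 peaks with the nearest coding start 500 to 1000 bp away, 14.3% of 315 peaks at 1000 to 5000 bp, and 12.7% of 204 peaks beyond 5000 bp. The median signal of the same 3 classes was lower with distance, at 61.4, 51.0 and 46.8.

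**Figure D1:**
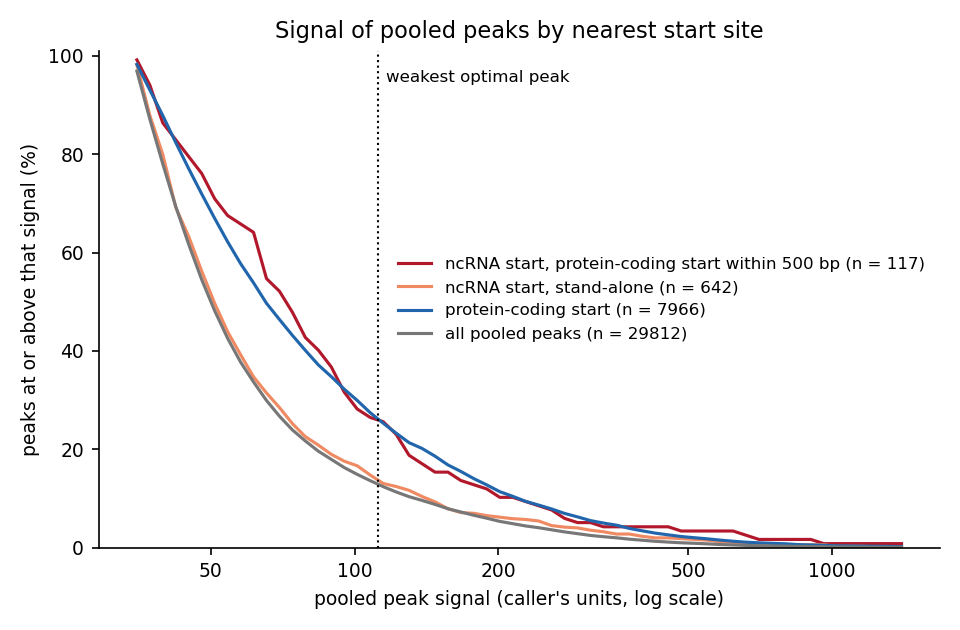
The plot gives, for each pooled signal (horizontal axis, log scale, units of the peak caller), the percentage of peaks at or above it, for shared and stand-alone ncRNA start sites, protein-coding start sites and all pooled peaks. The curve of the 117 shared ncRNA peaks runs near that of the 7966 protein-coding promoter peaks, and the curve of the 642 stand-alone ncRNA peaks runs near that of all 29812 pooled peaks.

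The replicates were compared through the strongest replicate summit within 100 bp of each pooled summit, so each replicate's value covers only the peaks found in it. At ncRNA over protein-coding start sites the ratio of median signals was 0.760, 0.847 and 0.816 in replicates 1, 2 and 3. Its mean was 0.808 ± 0.0441 (SD, n = 3). All 3 replicates were below 1, and the two-sided exact sign-flip permutation test over replicates gave p = 0.25, the smallest value that 3 replicates allow. Among optimal peaks alone the 3 ratios were 0.972, 1.08 and 0.967, with a mean of 1.01 ± 0.0631 (SD, n = 3, exact p = 1), on both sides of 1. Optimal peaks of both kinds passed the same lower limit of pooled signal, so a ratio near 1 cannot show that they are alike. At shared over stand-alone ncRNA start sites the ratio was 1.27, 1.29 and 1.25, a mean of 1.27 ± 0.0224 (SD, n = 3, exact p = 0.25), above 1 in every replicate.

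Most of the weak ncRNA peaks, like most of the weak coding promoter peaks, were not found again in every replicate. A summit was found within 100 bp in replicates 1, 2 and 3 for 64.3%, 56.0% and 58.9% of the 759 ncRNA peaks. It was found in all 3 for 192 ncRNA peaks, 25.3%, against 35.5% of protein-coding promoter peaks, 34.4% of promoter peaks of any gene and 23.1% of all pooled peaks. Another 47 ncRNA peaks, 6.2%, were found in none. When the 759 peaks were ranked by pooled signal and cut into 4 groups of near equal size, 0.53%, 3.2%, 25.9% and 71.6% of each group were in all 3 lists, from the weakest group to the strongest. Of the 118 optimal ncRNA peaks, 97 were found in all 3 replicates, 82.2%, against 87.6% of optimal protein-coding promoter peaks. For the other 641 ncRNA peaks the share was 14.8%, against 17.1% of the 5889 coding promoter peaks outside the optimal list. The cut into 4 groups was not made for other peaks.

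The optimal share of shared ncRNA peaks differed by orientation, which is tied to the side of the coding start on which the summit lay. The ncRNA gene and the coding gene were divergent, pointing away from each other, at 59 of the 117 shared peaks, and 23 of these were optimal, 39.0% (27.6 to 51.7%). The median signal of the divergent ncRNA peaks was 79.8, and 31 of the 59 were found in all 3 replicates, 52.5%. At 28 shared peaks the genes overlapped at their 5′ ends and 3 were optimal, 10.7% (3.7 to 27.2%). At 17 peaks both genes lay on the same strand at different starts and 1 was optimal, and at 13 peaks they shared the very same start site and 4 were optimal. The last 3 classes are small and their intervals overlap each other. The 13 same-start peaks count as ncRNA peaks only because ties were kept. By the rule, a divergent summit lies upstream of the coding start, and a summit at overlapping 5′ ends lies downstream of it. At coding start sites themselves, 80.3% of the 2077 optimal summits lay upstream, against 45.5% of the 5889 others. Orientation thus cannot be told apart here from the side of the coding start.

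**Figure D2:**
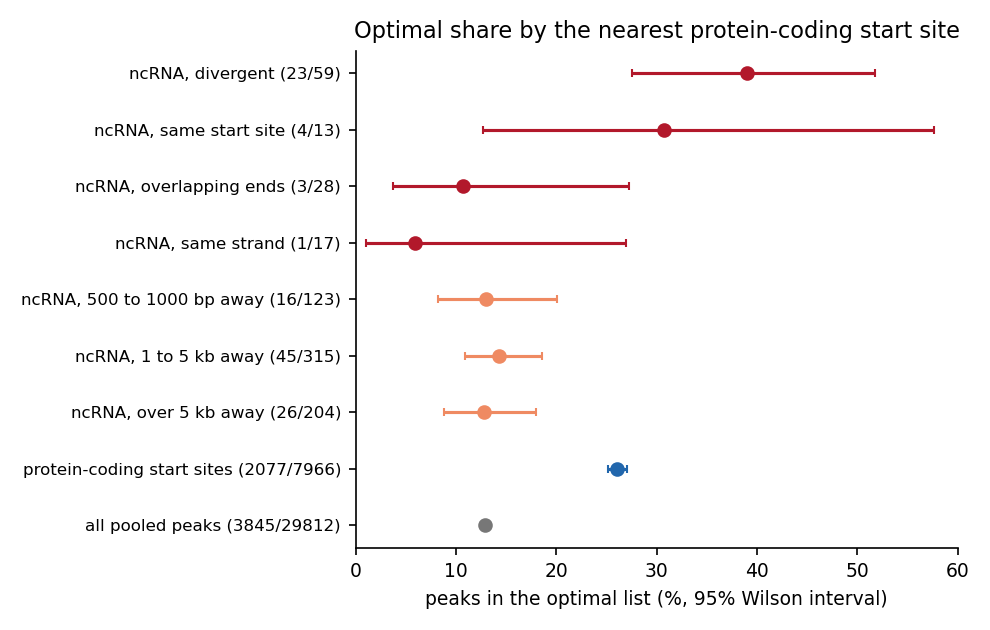
The horizontal axis gives the percentage of peaks in the optimal list with its 95% Wilson interval, for ncRNA start sites split by the orientation or distance of the nearest protein-coding start site, and below them for protein-coding start sites and all pooled peaks. Divergent ncRNA start sites are highest at 39.0%, the 3 classes of stand-alone ncRNA start sites lie between 12.7 and 14.3%, and the interval of the 13 same-start peaks is the widest.

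At the 23 optimal divergent ncRNA peaks the start sites of the paired genes were 6 to 872 bp apart, with a median of 197 bp. The summit lay between the paired starts in 12 of the 23 cases. The strongest was asRNA:CR45928 (2R, 23850217 to 23850575), whose start is 29 bp from that of eIF6, a translation factor that acts in ribosome biogenesis. Its pooled signal was 1520, rank 24 of all pooled peaks, and its summit lay 80 bp downstream of the asRNA start and 109 bp upstream of the eIF6 start. Its relative signal, the replicate signal divided by the median of that replicate at optimal peaks, was 8.19, 8.45 and 7.73 in replicates 1, 2 and 3. It was the strongest ncRNA promoter peak in the pooled list, and the eIF6 start site was almost as close to the summit as the asRNA start.

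Other divergent pairs followed at lower signal. lncRNA:CR44149 (2L, 9568524 to 9568897), beside brwl, had a pooled signal of 916 and relative signals of 4.82, 4.50 and 5.09 in replicates 1 to 3. asRNA:CR43257 (2R, 24793486 to 24793817), beside Reg-5, had a pooled signal of 699.7 and relative signals of 3.74, 3.93 and 3.56. Both were above 3 times the median optimal peak in every replicate. lncRNA:CR30055 had a pooled signal of 461 and lay 615 bp from the start of Sin3A, a transcriptional corepressor. asRNA:CR43470 had a signal of 327 and lay 113 bp from MED4, a subunit of the Mediator complex that links activators to RNA polymerase. asRNA:CR42254 had a signal of 137.1 and started 6 bp from BEAF-32, which encodes a boundary-element binding protein. The relative signals of the asRNA:CR42254 peak were 0.65, 0.65 and 0.92 in replicates 1 to 3, below the median optimal peak in each.

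Of the 4 optimal peaks at a start site annotated to both an ncRNA and a coding gene, the strongest was lncRNA:enrr (X, 523310 to 523647), which shares its start with elav, the gene of a neuronal RNA-binding protein. Its pooled signal was 638, its summit lay 257 bp upstream of the common start, and its relative signals were 3.56, 3.37 and 3.25 in replicates 1 to 3. The replicates lay close together around their mean of 3.39 ± 0.153 (SD, n = 3). lncRNA:CR45212 had a signal of 262 at the start it shares with IKKbeta, a kinase of the innate immune response. asRNA:CR45827 had a signal of 239 at the start it shares with SCOT, a ketone body enzyme. Such peaks cannot be told apart from peaks of the coding gene.

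The strongest peak was stand-alone at 8 of the 12 ncRNA genes with the strongest signal. Stand-alone peaks were 642 of all 759 ncRNA peaks and 87 of the 118 optimal ones, so 8 of 12 is no excess. The other 4 genes were asRNA:CR45928, lncRNA:CR44149, asRNA:CR43257 and lncRNA:enrr. lncRNA:CR44619 on X had a pair of strong optimal peaks, 5122 and 6050 bp from the nearest coding start, of CG4004. The downstream peak (X, 12752164 to 12752530) had a pooled signal of 1408 and relative signals of 8.11, 7.16 and 7.17 in replicates 1, 2 and 3. The upstream peak (X, 12751169 to 12751614) had a pooled signal of 1228 and relative signals of 6.29, 7.63 and 6.01. Every replicate was over 6 times its median optimal peak at both. The summits lay 500 bp downstream and 428 bp upstream of the annotated start, at the edges of the 500 bp window, so a 250 bp window would leave this gene out.

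lncRNA:CR31840 (2L, 14023925 to 14024252) had its summit 20 bp downstream of its start, the nearest to a start among the stand-alone peaks of these genes. Its pooled signal was 975, and its relative signals of 5.11, 6.96 and 4.33 in replicates 1 to 3 spread more than those of the other strongest genes (mean 5.47 ± 1.35, SD, n = 3). lncRNA:CR31044 (3R, 29214269 to 29214597) had a summit 107 bp upstream, a pooled signal of 965 and relative signals of 5.40, 4.63 and 5.39. Its nearest coding start, of eEF1gamma, a subunit of the translation elongation factor 1 complex, was 5717 bp away. These 2 peaks were above 4 times the median optimal peak in all 3 replicates.

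The remaining stand-alone genes of the 12 strongest had pooled signals of 578 to 692. lncRNA:CR45997 (2R, 17262582 to 17262888), 2788 bp from the nearest start of mbl, the splicing regulator muscleblind, had 692 and relative signals of 3.98, 3.82 and 3.21 in replicates 1 to 3. lncRNA:CR46102 (3R, 25738064 to 25738312), 2275 bp from LpR2, a lipophorin receptor, had 658 and relative signals of 3.37, 3.53 and 3.65. lncRNA:CR44867 (2L, 15911132 to 15911415) had 624, and its values of 3.51, 3.68 and 2.70 were lowest in replicate 3. lncRNA:CR45668 (X, 5900040 to 5900327) had 608 and lay 640 bp from Act5C, a cytoplasmic actin, just outside the distance that would make it shared. Its relative signals were 3.10, 3.30 and 3.39. lncRNA:CR44917 (2L, 21867366 to 21867580) had 578, with 3.42, 2.97 and 2.65, and its nearest coding start was 30794 bp away.

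**Figure D3:**
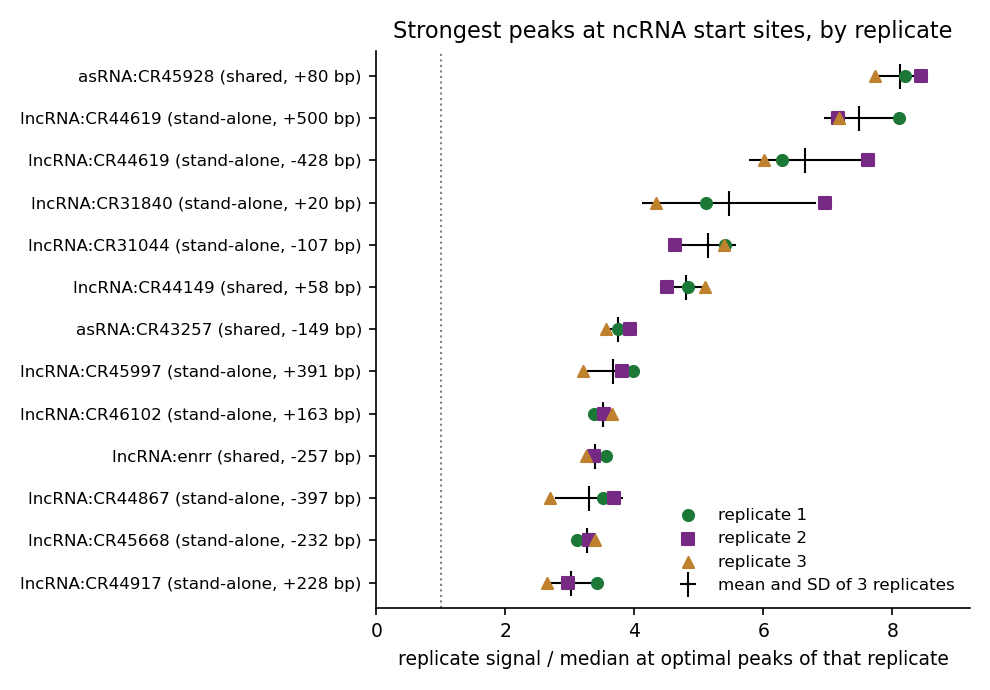
Each row is a peak of the 12 ncRNA genes with the strongest pooled signal, with its summit's position from the start site, and points give the signal in each replicate divided by that replicate's median at optimal peaks, with the mean and SD of 3 replicates (lncRNA:CR45668 also had weaker peaks, which are left out). All points lie above 2.6, and the widest spread is at lncRNA:CR31840, 4.33 to 6.96.

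The members nearest to the limit of the optimal list had almost equal signals. Just inside were lncRNA:TS2 with 113.3, lncRNA:CR44633 with 113.3 and lncRNA:CR34052 with 112.2. Just outside were lncRNA:CR43857 with 111.8, lncRNA:CR44868 with 111.6 and lncRNA:CR44284 with 111.1. Each of these 6 was below the median optimal peak in every replicate that held it.

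Several ncRNA genes carried more than 1 peak. There were 91 genes or microRNA entries with 2 or more peaks, of the 657 with any. Among protein-coding genes it was 1458 of the 6039 with a promoter peak, with up to 8 peaks per gene. These counts were not adjusted for the number of annotated starts per gene. The highest number of peaks at an ncRNA gene was 5, at lncRNA:CR46006 on 3L. All 5 of its peaks were weak, between 38.3 and 55.8, none was optimal, and they lay at more than 1 of its annotated starts. lncRNA:CR45668 had 3 peaks with signals of 608, 163.8 and 49.8, of which the stronger 2 were optimal. asRNA:CR43629 beside CG31522 had signals of 159.7, 94.9 and 81.6, lncRNA:CR45251 had 186.7, 89.9 and 48.9, and lncRNA:CR44868 had 159.4, 111.6 and 58.6. lncRNA:CR43928 near Thor, a translation repressor of the insulin pathway, had 115.4, 46.4 and 37.5. lncRNA:CR44677, lncRNA:CR45559 and lncRNA:marge had 3 peaks each and none was optimal. The intervals of 147 of the 759 peaks overlapped another of them, and the smallest gap between summits was 199 bp, so close peaks of 1 gene are not independent measurements.

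Optimal summits at ncRNA start sites were spread over the whole window, while those at coding start sites were packed just upstream of the start. At ncRNA start sites 67 of 118 optimal summits lay upstream, 56.8% (47.8 to 65.4%), against 1668 of 2077 at protein-coding start sites, 80.3% (78.5 to 82.0%). Within 100 bp of the start lay 34 of the 118 optimal ncRNA summits, 28.8% (21.4 to 37.6%), against 54.7% (52.6 to 56.9%) of the optimal coding summits. The median distance to the start was 202.5 bp at ncRNA start sites and 91 bp at protein-coding ones. The spread was widest at stand-alone ncRNA start sites, where 20 of 87 optimal summits were within 100 bp, 23.0% (15.4 to 32.9%), with a median distance of 234 bp. At shared ncRNA start sites it was 14 of 31, 45.2% (29.2 to 62.2%), with a median distance of 117 bp, but a shared summit is by the rule at least as near to the ncRNA start as to the coding one. Over all 759 ncRNA peaks 44.3% of summits lay upstream, against 54.6% of the 7966 coding ones. How exactly the annotated ncRNA starts mark true starts in these embryos was not tested.

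The same position was read from each replicate list on its own, an addition made after the pooled value was seen. Among the strongest 3845 peaks of replicates 1, 2 and 3, 126, 119 and 110 lay at ncRNA start sites. Of these ncRNA summits 55.6%, 56.3% and 56.4% were upstream, against 79.6%, 81.2% and 72.8% of the coding ones. The mean was 56.1 ± 0.450% at ncRNA start sites and 77.9 ± 4.45% at coding start sites (SD, n = 3 each). The difference averaged -21.8 ± 4.65 percentage points (SD, n = 3), lower at ncRNA start sites in 3 of 3 replicates, with the two-sided exact sign-flip permutation p = 0.25, the smallest possible. The strongest 3845 held 15.9 ± 1.27% of a replicate's ncRNA promoter peaks and 26.8 ± 3.49% of its coding promoter peaks (SD, n = 3 each).

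**Figure D4:**
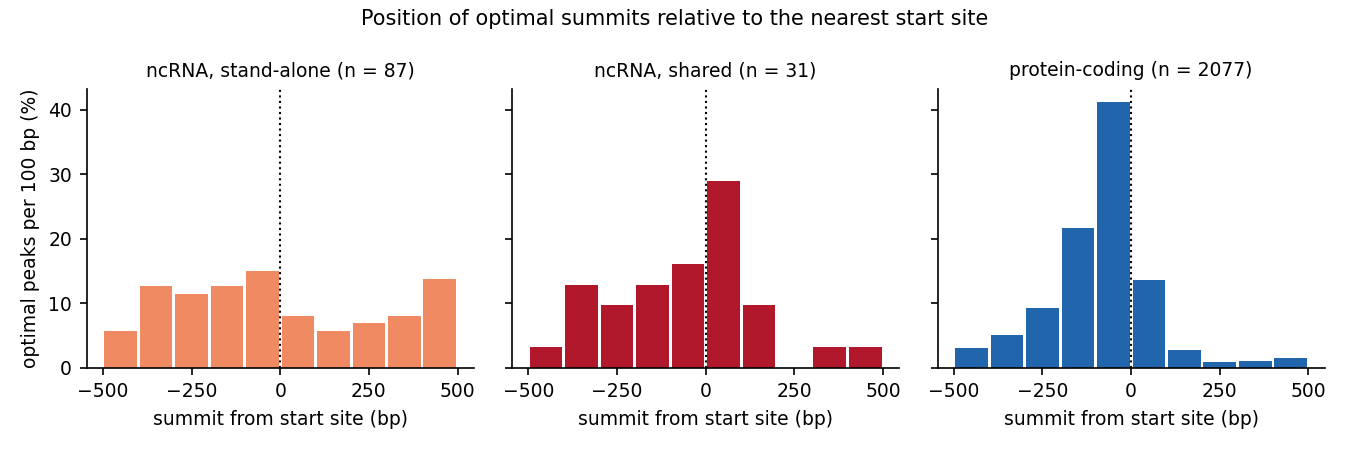
Bars give the percentage of optimal peaks in each 100 bp of distance from the summit to the nearest start site, negative upstream, for stand-alone ncRNA, shared ncRNA and protein-coding start sites. The coding panel has its tallest bar in the 100 bp upstream of the start, 41.2% of 2077 peaks, while no bar of the stand-alone ncRNA panel passes 14.9% of 87 peaks.

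By class of RNA, lncRNA start sites supplied most of the peaks. There were 528 peaks at 449 lncRNA genes, and 91 were optimal, 17.2% (14.3 to 20.7%). There were 159 peaks at 144 asRNA genes, and 20 were optimal, 12.6% (8.3 to 18.6%). At miRNA entries 5 of 62 peaks were optimal, 8.1% (3.5 to 17.5%), and at other small RNAs 2 of 10. These intervals overlap each other. Summits at asRNA and miRNA start sites often fell in coding sequence, 44.7% and 45.2% of them. The share was 2.1% at lncRNA start sites, 19.3% at protein-coding start sites and 29.1% over all pooled peaks. Among the 118 optimal ncRNA peaks 1 summit lay in coding sequence, 0.85%, against 1.0% of the 2077 optimal coding promoter peaks. Optimal asRNA peaks were shared in 12 of 20 cases, against 25.8% of all asRNA peaks. Optimal lncRNA peaks were shared in 19 of 91 cases, against 13.3% of all lncRNA peaks, and optimal miRNA peaks in none of 5, against 6.5% of all miRNA peaks.

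The annotation lists each mature microRNA beside its hairpin, so the count by gene leaves microRNA entries out. A promoter peak was present at 601 of 2520 other ncRNA genes, 23.8%, against 6039 of 13945 protein-coding genes, 43.3%. An optimal promoter peak was present at 109 of these ncRNA genes, 4.33% (3.60 to 5.19%), and at 1925 protein-coding genes, 13.8% (13.2 to 14.4%). Among classes it was 87 of 1951 lncRNA genes, 4.46% (3.63 to 5.47%), 20 of 503 asRNA genes, 3.98% (2.59 to 6.06%). Of 741 microRNA entries, hairpins and mature arms together, 5 had an optimal peak. With them, 657 of 3261 ncRNA entries had a promoter peak, 20.1%, and 114 an optimal one, 3.50%. A gene counts as lacking a peak when another start site was nearer to the summit, which holds for ncRNA genes packed beside coding ones. Any annotated start of a gene could take a peak, and these shares were not adjusted for the number of starts per gene.

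The 5 optimal miRNA peaks lay away from coding start sites. The strongest, at mir-9378 on 2L (10751894 to 10752313), had a pooled signal of 341 and relative signals of 1.82, 1.39 and 2.06 in replicates 1 to 3, above the median optimal peak in each. mir-275 had a signal of 164.4 with relative signals of 0.79, 1.03 and 0.70, its summit 422 bp upstream of the hairpin. mir-2491 had 145.2, and the mature arms of mir-9377 and mir-4968 had 154.3 and 123.8. The peak at mir-34, a microRNA known in the fly for a role in ageing neurons, had a signal of 109.0 and was just outside the optimal list. The optimal peaks of other small RNAs were at sncRNA:204, with 160.5, and snoRNA:Or-ACA9, with 132.9.

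Of a list of 27 well-characterised ncRNAs, 24 were matched to the annotation by name. A promoter peak was present at 11 of the 24, 45.8%, against 23.8% of all ncRNA genes other than microRNAs. An optimal one was present at 3, 12.5%, against 4.33% of those genes. The list is short and was chosen with earlier results of these data known, so these shares cannot show a difference from other ncRNA genes. lncRNA:CR31044, described above, was the strongest of the 3 with an optimal peak. Uhg4, a host gene of small nucleolar RNAs, had a signal of 353.5 with its summit 85 bp upstream and relative signals of 2.01, 2.23 and 1.31 in replicates 1 to 3. lncRNA:roX1, an RNA of the dosage compensation complex that coats the male X chromosome, had a signal of 145.9 with its summit 86 bp upstream and relative signals of 0.93, 0.48 and 0.89, below the median optimal peak in all 3. Its partner lncRNA:roX2 had its strongest peak at 84.3, outside the optimal list, with relative signals of 0.42, 0.33 and 0.49. The roX1 peak was higher than the roX2 peak in each replicate, with no test made.

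The other characterised ncRNAs with a peak were weaker. lncRNA:Hsromega, the heat shock RNA that forms nuclear speckles, reached 108.4, just outside the optimal list, and its relative signals of 0.77, 0.58 and 0.32 differed more than 2 times between replicates. Uhg1 reached 93.6, Uhg5 67.6 and RNaseMRP:RNA, the RNA of a ribosomal RNA processing enzyme, 59.8. lncRNA:iab8, a transcript of the Hox gene cluster, reached 88.9, lncRNA:acal 49.1 and lncRNA:yar 44.8. No promoter peak was found for lncRNA:noe, lncRNA:bxd, lncRNA:let7C, Uhg2, Uhg3, Uhg7, Uhg8, lncRNA:cherub, lncRNA:sphinx, lncRNA:Vinr, both copies of 7SLRNA or RNaseP:RNA. At lncRNA:bxd the nearest summit was 561 bp from the start. At Uhg8 a peak of 98.8 lay inside the window but was nearer to the start of CG5199. A gene with no peak here had none in a list limited to 29812 entries, so its lack of a peak says nothing of weaker binding.

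**Figure D5:**
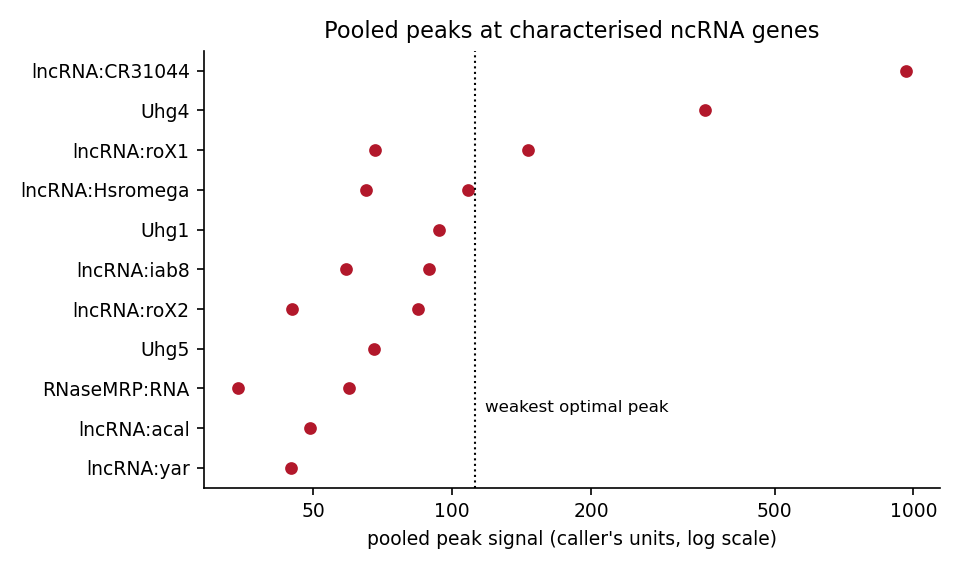
Each point is a pooled promoter peak of a characterised ncRNA gene, placed by its signal (log scale, units of the peak caller), and the dotted line marks the weakest optimal peak, 112.0. Points right of the line are lncRNA:CR31044, Uhg4 and the stronger peak of lncRNA:roX1, while lncRNA:Hsromega lies just left of it.

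The optimal share of ncRNA peaks was highest on X and lowest on chromosome 4 and 3L. On X, 25 of 91 ncRNA promoter peaks were optimal, 27.5% (19.4 to 37.4%), against 15.5% of all pooled peaks on X. On 2R it was 30 of 153, 19.6% (14.1 to 26.6%), against 11.98% of all pooled peaks of that arm. On 2L and 3R the shares were 13.8% and 14.5%, against 12.8% and 12.7% of all pooled peaks there. On 3L 15 of 167 were optimal, 9.0% (5.5 to 14.3%), against 11.96%. None of 9 ncRNA peaks on chromosome 4 was optimal, with an interval that reaches 29.9% and so includes the 14.7% of all pooled peaks on that chromosome. The strongest there was at mir-9385, with a signal of 68.0, and the strongest on 3L was at lncRNA:CR43626, with 535. Arms were not compared by a test.

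The DNA under optimal ncRNA summits was A and T rich. Any of the short words described below was found in 5.7% of stand-alone optimal ncRNA peaks and 19.4% of shared ones, with intervals that overlap. The share at optimal coding promoter peaks was 18.6%, close to that of the shared ncRNA peaks. Within 50 bp on either side of the summit the median GC content was 34.7% at the 118 optimal ncRNA peaks, against 38.6% at the 2077 optimal coding promoter peaks and 36.6% at all optimal peaks. At the other 641 ncRNA peaks it was 49.5%, against 47.5% at coding promoter peaks outside the optimal list. Low GC thus went with high signal in each set. Whether base composition affects the signal was not tested.

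Words were searched on both strands in the same stretch. The forkhead word TGTTTAC was in 4 of 118 optimal ncRNA peaks, 3.4% (1.3 to 8.4%). It was in 3.9% of optimal coding promoter peaks, 3.6% of all optimal peaks and 2.1% of all pooled peaks. TATCGATA, the word bound by the DNA replication-related element factor at housekeeping promoters, was in 1 optimal ncRNA peak, 0.85% (0.15 to 4.6%), against 5.5% (4.6 to 6.6%) of optimal coding promoter peaks and 1.0% of all pooled peaks. GGTCACACT, bound by the core promoter factor M1BP, was in none of the 118 optimal ncRNA peaks, with an interval up to 3.2%, against 2.2% of the coding ones and 0.62% of all pooled peaks. GAGAGAG was in 2.5% of optimal ncRNA peaks, against 1.4% of optimal coding ones and 1.6% of all pooled peaks. CAGCTG was in 2.5% of optimal ncRNA peaks, against 5.6% of optimal coding ones, 4.4% of all optimal peaks and 6.5% of all pooled peaks. CAGGTAG and CACGTG were in none of the optimal ncRNA peaks, against 0.29% and 1.7% of the optimal coding ones and 0.80% and 1.4% of all pooled peaks. At least 1 of the 7 words was present in 9.3% (5.3 to 15.9%) of optimal ncRNA peaks. The share was 18.6% (17.0 to 20.4%) of optimal coding promoter peaks, 14.1% of all optimal peaks and 13.3% of all pooled peaks. Shared optimal ncRNA peaks held 1 or more in 6 of 31 cases, 19.4% (9.2 to 36.3%). Stand-alone ones did in 5 of 87, 5.7% (2.5 to 12.8%), and the intervals overlap. Over all optimal peaks TATCGATA was in 3.1%, GGTCACACT in 1.3%, GAGAGAG in 1.4%, CAGGTAG in 0.47% and CACGTG in 1.2%.

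The shorter core AAACA, which TGTTTAC contains on its other strand, was in 54 of 118 optimal ncRNA peaks, 45.8% (37.0 to 54.7%). It was in 41.3% (39.2 to 43.4%) of optimal coding promoter peaks, 42.4% of all optimal peaks and 8945 of the 29812 pooled peaks. By kind of start site it was in 19 of 31 shared optimal ncRNA peaks, 61.3% (43.8 to 76.3%), and in 35 of 87 stand-alone ones, 40.2% (30.6 to 50.7%), with intervals that overlap. At ncRNA peaks outside the optimal list it was in 31.2%. The core is itself A-rich, and its share was not adjusted for GC content. A match describes these letters only and is not evidence of a bound site.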

How the data were processed

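Anti-GFP ChIP-seq of 3 biological replicates was deposited as peak lists. Per the labels, chromatin was sonicated to 200 to 800 bp. Per the deposited readme files, relaxed lists (peaks with background) existed for each replicate and for the pool and fed the irreproducible discovery rate procedure, whose threshold gave the optimal list. The peak signal is the authors' deposited value. The caller, control and threshold behind it, and how deeply the libraries were sequenced, were not given in the sources used here. Depth is thus unknown, and intervals cover counting error over peaks only. Each replicate list held 30000 peaks, and all 3845 optimal peaks were in the pooled list. Signal was used to rank and describe peaks within a list, or relative to a replicate's median at matched optimal peaks (74.8, 58.1 and 54.5 in replicates 1 to 3). The scale differs between lists.

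Coordinates are 1-based, in dm6. Start sites were those of Ensembl release 115 for BDGP6.54, without transposable elements (18164 genes, 6 arms). Sequences came from the RefSeq genome of the same build, in which 17413 of 17415 shared genes had equal coordinates. Of the miRNA entries, 481 were mature RNAs, all inside 1 of 260 hairpins. An ncRNA start at the same distance as a coding one counted as ncRNA (13 peaks). Peaks are not replicates, so shares carry 95% Wilson intervals with no test. The p-values are two-sided exact sign-flip tests over the replicates, computed with numpy 2.4.6 and pandas 2.3.3 (Python 3.11.15). Only the steps that find the nearest start site and match replicate summits were checked on simulated data.

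Named genes were the 12 with the strongest peaks and their coding partners, a list of 27 characterised ncRNAs, of which bft, msa and Uhg6 did not match and were not analysed here, the strongest on each arm, genes with 3 or more peaks, and the 3 on either side of the optimal limit. Optimal peaks of miRNAs and other small RNAs, further divergent or same-start partners and mir-34 were named after their values were seen. The members, lists and words were chosen with earlier results of these data known. Alternatives were windows of 250 and 1000 bp, ties left out, 1 peak per gene, interval midpoints, matching within 50 and 200 bp, word windows of 100 bp on either side of the summit, stand-alone or optimal peaks only, a stricter optimal limit and each replicate left out. The dm3 lists were not used.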

Additional observations from a re-analysis of the deposited data

How the results depend on the processing

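No paired analysis was possible because the data hold 1 group. Of 81 alternative values of the main results, 54 were counted as close to the value above and 27 were not. Close meant within the interval for a share or difference of shares, within 1 SD for the pooled median ratio, within 1.5 times for the gene count, and the same direction for the replicate ratio, which was between 0.729 and 0.866. With a 250 bp window the median ratio was 0.719, 410 ncRNA entries had a peak and 11.6% of ncRNA peaks were shared. With 1000 bp the median ratio was 0.868, 945 entries had a peak and 23.4% were shared. With 1 peak per gene the median ratio was 0.737. Interval midpoints left the optimal share at 15.5%, the upstream share at 44.3% and the entries with a peak at 657, so they were hardly a separate check. Matching replicates within 50 or 200 bp put 15.4% or 34.9% of ncRNA peaks in all 3 lists. In the stronger part of the optimal list, above a signal of 180.6, lay 7.91% of ncRNA peaks. With optimal peaks only, upstream summits were the majority, 56.8%, unlike over all ncRNA peaks, 26.3% were shared, 114 entries had a peak and 9.32% held a word. With windows of 100 bp on either side 25.7% held a word. The pooled median ratio could not be recomputed without a replicate. Leaving out a replicate and asking for a summit in both others gave 31.5 to 41.6% in both lists, 13.0 to 14.1% optimal, 48.7 to 50.6% upstream, 18.6 to 21.2% shared and 225 to 291 entries. These restricted counts cover fewer peaks by construction, and the cause of the other shifts was not tested. With depth unknown, a peak missing from a list shows only that none was called there.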
